A study of Arabidopsis thaliana with 12 samples.

Results

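The class III peroxidases of the cell wall described here are 60 genes of Arabidopsis thaliana, numbered PER1 to PER73 by locus order with 13 numbers left out, each taken by its locus. The family and the role lists used below were chosen with earlier results of these data known. They were looked up among the 33602 genes tested. In all, 48 of the 60 were listed in at least one of the 5 comparisons and 12 in none. RNA depleted of ribosomal RNA was sequenced from roots of Col-0 seedlings harvested 6 days after germination from MS plates. The 12 samples formed 4 groups of 3, namely plants labelled trm4b-1 on 0.01 uM paraquat, plants labelled trm4b-1 on control medium, wild-type (WT) plants on 0.01 uM paraquat and WT plants on control medium. The trm4b-1 label names TRM4B (AT2G22400), which encodes an RNA cytosine-5 methyltransferase. Paraquat is a herbicide that passes electrons to oxygen, so that cells form superoxide and then hydrogen peroxide.

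Only comparison tables made by the authors were analysed. They give neither levels nor single samples, so library depth is unknown and the tissue label could not be checked against marker levels. Each table lists the genes with an adjusted p under 0.1. A gene is called changed, higher or lower here at an adjusted p under 0.05 (limma, by the authors, adjusted over all genes tested). Values are log2 fold changes, and the ± after a value is its standard error, worked back from the fold change and p of the table. Some comparisons that were not listed could be rebuilt as sums or differences of listed ones. Of the 300 values that 60 members have in 5 comparisons, 101 were deposited, 46 were rebuilt and 153 could not be had, and of the rebuilt values 23 are interactions and 13 are genotype differences on paraquat. The libraries labelled trm4b-1 held more TRM4B RNA than WT libraries, by 3.90 ± 0.08 on paraquat and by 2.89 ± 0.08 on control medium in the authors' deposited tables. Whether that RNA is a whole transcript cannot be read from one value per gene, and each genotype direction below is that of libraries with this label. UPOX (AT2G21640), a marker gene of oxidative stress, rose with paraquat by 1.93 in trm4b-1-labelled roots and by 4.65 in WT roots in the authors' deposited tables. UPOX was also higher in trm4b-1-labelled roots than in WT roots, by 0.51 on paraquat and by 3.23 on control medium, and its interaction was -2.72 in the authors' deposited tables (adjusted p = 0.0474, 6.37e-07 and 4.04e-05). The part of this difference in the peroxidase values was not tested.

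Class III peroxidases are heme enzymes that plant cells secrete into the wall. With hydrogen peroxide they oxidise phenolic compounds, which couples monolignols into lignin and cross-links extensins and so stiffens the wall, and in another cycle they form reactive oxygen species that loosen it. In roots, family members act in root hair growth, in the Casparian strip of the endodermis, in xylem lignin and in the balance of superoxide and hydrogen peroxide at the border of the meristem and the elongation zone.

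Paraquat moved much of the family, in both directions. In trm4b-1-labelled roots 24 of the 60 genes changed, 14 higher and 10 lower, where 9.05% of all genes tested changed, 4.72% higher and 4.33% lower. In WT roots 40 of the 60 changed, 17 higher and 23 lower, where 17% of all genes tested changed, 7.99% higher and 9.01% lower. No filter on expression is given, so genes with few or no reads in roots may be among the genes tested. Here and below, shares of all genes tested need not equal shares of expressed genes. The median change of the higher members was 0.82 in trm4b-1-labelled roots and 1.33 in WT roots, and that of the lower members was -0.71 in trm4b-1-labelled roots and -0.97 in WT roots, from values in the authors' deposited tables. Over all changed genes the medians of the higher genes were 0.84 in trm4b-1-labelled roots and 0.75 in WT roots, and those of the lower genes -0.69 in trm4b-1-labelled roots and -0.70 in WT roots. The tables list only genes near or past the threshold, so these medians describe the changed members and not the family.

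**Figure D1:**
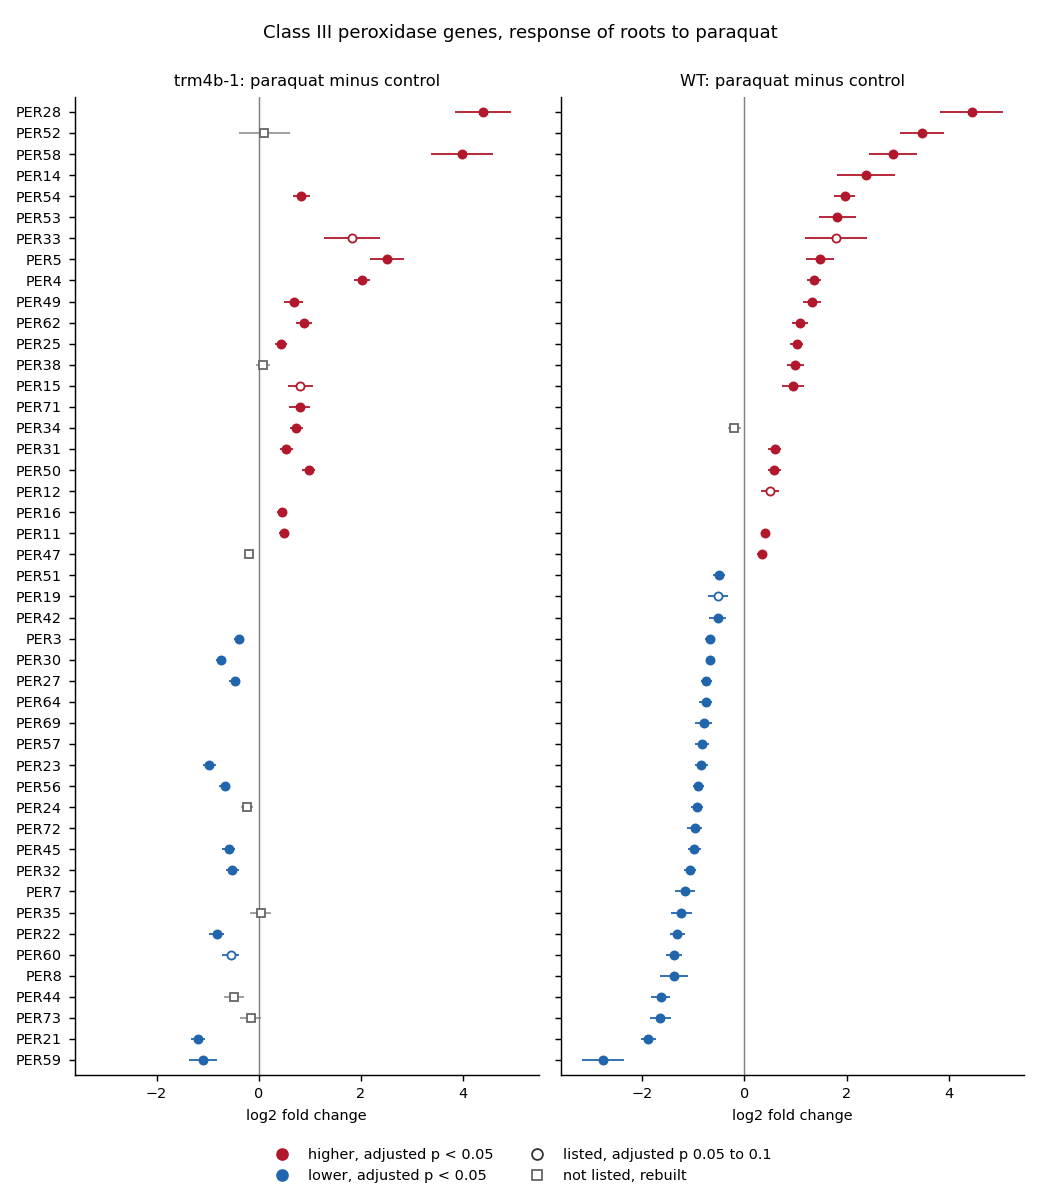
Log2 fold change with paraquat (x axis) of the 46 peroxidase genes with a value in either genotype, in trm4b-1-labelled roots on the left and WT roots on the right, with bars of 1 standard error. Filled points passed an adjusted p under 0.05, open circles were listed without passing and squares were rebuilt from other comparisons. PER28 and PER58 stand far to the right in both panels, while PER52 does so for WT and lies at 0.11 for trm4b-1-labelled roots.

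The 24 members that changed in trm4b-1-labelled roots and the 40 that changed in WT roots come from comparisons that share no samples. Both comparisons called 21 genes, which is 87.5% of the list from trm4b-1-labelled roots and 52.5% of the list from WT roots, with 11 higher in both, 10 lower in both and 0 in opposite directions. Over all genes the shared calls in the same direction made up 72.0% of the list from trm4b-1-labelled roots and 38.3% of the list from WT roots. PER16, PER34 and PER71 changed in trm4b-1-labelled roots and not in WT roots. A further 19 members changed in WT roots and not in trm4b-1-labelled roots, 17 of which were not listed for trm4b-1-labelled roots at all. The difference of the responses between the genotypes was itself listed for 7 of these 19 and passed for 1, PER52. Among the 33602 genes tested, 317 were listed for this difference and 0.318% passed. The 19 were picked by the same responses that make up this difference, so these counts are not independent of that choice. For the members of the 19 other than PER52, a loss of the response was not shown.

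Root hair peroxidases, a list of 7 genes, were PER1, PER7, PER8, PER35, PER44, PER60 and PER73. PER44 and PER73 act with PER1 in tip growth of root hairs through extensin cross-linking, and the others are known as genes expressed in hair cells. With paraquat, 0 of the 7 changed in trm4b-1-labelled roots and 6 of 7 were lower in WT roots. On control medium 5 of the 7 were lower in trm4b-1-labelled roots than in WT roots. Of all genes tested, 4.33% were lower with paraquat in trm4b-1-labelled roots and 9.01% in WT roots. On control medium 1.19% of them were lower in trm4b-1-labelled roots. The count of 0 of 7 is near the 9.05% of all genes tested that changed in trm4b-1-labelled roots. PER1 was listed in no table, and its coding sequence is identical over all 978 bases to that of its neighbour PER2, so reads from the coding region could not have been assigned to one of the pair.

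PER73 (AT5G67400, also RHS19, chr5:26894856-26896488 of TAIR10, plus strand, 4 exons) had a paraquat response in trm4b-1-labelled roots of -0.16 ± 0.21, rebuilt from the authors' deposited tables, with a 95% interval from -0.61 to 0.30. In WT roots it fell 3.13-fold, at -1.65 ± 0.21 in the authors' deposited table (adjusted p = 5.97e-05). Its interaction, the paraquat response in trm4b-1-labelled roots minus that in WT roots, was 1.49 ± 0.30 and did not pass (adjusted p = 0.0507 in the authors' deposited table). PER44 had a rebuilt response of -0.48 ± 0.19 in trm4b-1-labelled roots and changed by -1.64 ± 0.19 in WT roots in the authors' deposited table (adjusted p = 2.32e-05). PER60, also RHS18, was listed at -0.55 ± 0.17 in trm4b-1-labelled roots, which did not pass (adjusted p = 0.0528), and changed by -1.38 ± 0.16 in WT roots in the authors' deposited table (adjusted p = 3.2e-05). PER35 had a rebuilt response of 0.04 ± 0.20 in trm4b-1-labelled roots and changed by -1.24 ± 0.20 in WT roots in the authors' deposited table. PER7 and PER8 were not listed for trm4b-1-labelled roots, and in WT roots they were lower, with values of -1.17 ± 0.19 and -1.38 ± 0.28 in the authors' deposited table. The interactions of PER35 and PER44 were listed at 1.28 ± 0.29 and 1.16 ± 0.27 without passing (adjusted p = 0.0745 and 0.0811 in the authors' deposited table).

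Between the genotypes, 0 of the 7 root hair peroxidases were listed on paraquat. Of the 33602 genes tested only 75 were listed in that comparison and 0.143% differed, so a count of 0 is near that share. The rebuilt differences on paraquat were 0.23 ± 0.22 for PER73, 0.32 ± 0.21 for PER35, 0.18 ± 0.19 for PER44 and 0.08 ± 0.18 for PER60. On control medium PER73 was lower in trm4b-1-labelled roots than in WT roots by -1.26 ± 0.21 in the authors' deposited table (adjusted p = 0.00551). PER44, PER35, PER7 and PER60 were lower at -0.98, -0.96, -0.96 and -0.75 in the authors' deposited table, and PER8 was not listed. The control comparison of the genotypes and the WT paraquat comparison share the WT control samples and are given side by side.

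Root hair marker genes outside the family were counted in the same comparisons. The shares of all genes tested are those given above for the root hair peroxidases. Of 9 markers, 2 were lower and 0 higher with paraquat in trm4b-1-labelled roots, with changes from -0.58 to -0.41, and 8 were lower and 0 higher in WT roots, with changes from -2.18 to -0.99 in the authors' deposited tables. Between the genotypes 0 of the 9 were listed on paraquat, where 75 of the 33602 genes tested were listed. On control medium 6 of the 9 were lower in trm4b-1-labelled roots, with differences from -1.43 to -0.85 in the authors' deposited tables. The interaction passed for 1 of the 9, RHS12, at 1.19 ± 0.24 in the authors' deposited table (adjusted p = 0.0451). A further 2 markers, PRP3 and RHS13, were listed lower with paraquat in trm4b-1-labelled roots at -0.66 and -0.62 without passing (adjusted p = 0.0972 and 0.0562 in the authors' deposited table). In whole roots, fewer hair cells and less RNA per hair cell cannot be told apart, and the part of hair cell number in these results was not tested. RSL4, a transcription factor that drives hair growth, was lower at -0.74 ± 0.14 in trm4b-1-labelled roots on control medium in the authors' deposited table. With paraquat RSL4 was not listed for trm4b-1-labelled roots and changed by -0.83 ± 0.14 in WT roots in the authors' deposited table.

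The sequences before these genes are shown because 6 of the 7 genes were lower with paraquat in WT roots. A promoter here is the 250 bases before the deposited 5′ end of the gene in TAIR10, read from assembly TAIR10.1 (RefSeq) on the gene's own strand. Capitals mark GCACGT or GCACGA on either strand, the letters at the core of the root hair element, a promoter sequence known from hair-cell genes. Either core stood in 4 of the 6 promoters of listed root hair peroxidases (66.7%), in 6 of 9 of the root hair markers (66.7%) and in 651 of 8499 promoters of nuclear genes listed in any table (7.66%). The element is known from hair-cell genes and both lists are of hair-cell genes. Their shares, and the element in PER60 below, are thus not independent of how the genes were chosen.
PER8 (chr1:12617033-12617282, minus strand): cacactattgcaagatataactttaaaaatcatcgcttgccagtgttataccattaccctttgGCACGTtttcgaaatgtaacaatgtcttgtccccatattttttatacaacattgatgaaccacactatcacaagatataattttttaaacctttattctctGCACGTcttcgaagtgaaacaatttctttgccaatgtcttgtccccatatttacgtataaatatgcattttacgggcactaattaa
PER35 (chr3:18525688-18525937, minus strand): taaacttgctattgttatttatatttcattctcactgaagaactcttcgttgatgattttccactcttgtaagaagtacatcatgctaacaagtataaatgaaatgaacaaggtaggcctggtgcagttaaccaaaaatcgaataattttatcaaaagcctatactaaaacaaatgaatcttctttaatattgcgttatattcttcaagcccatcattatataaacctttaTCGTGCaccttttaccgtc
PER44 (chr4:13200343-13200592, plus strand): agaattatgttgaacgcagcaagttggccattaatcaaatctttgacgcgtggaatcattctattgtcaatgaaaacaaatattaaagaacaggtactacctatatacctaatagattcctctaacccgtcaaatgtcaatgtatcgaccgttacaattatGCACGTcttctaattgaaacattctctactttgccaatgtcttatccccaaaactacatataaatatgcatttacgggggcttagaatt
PER60 (chr5:7426064-7426313, plus strand): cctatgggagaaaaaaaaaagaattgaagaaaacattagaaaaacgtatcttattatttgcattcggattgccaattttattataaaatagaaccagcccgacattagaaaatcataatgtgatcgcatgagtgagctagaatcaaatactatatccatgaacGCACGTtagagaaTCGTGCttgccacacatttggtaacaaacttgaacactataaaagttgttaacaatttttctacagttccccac
The cores lay 187 and 86 bases before the start in PER8, 19 bases before it in PER35, 89 in PER44, and 87 and 74 in PER60, counted from the first base of the match to the deposited 5′ end. PER60 was the single member of the 48 listed whose promoter held the full root hair element, which 72 of 8499 promoters held (0.847%). The promoters of PER7 and PER73 held neither core in this window. A match describes the letters and does not show a site in use, and 2 of the 17 members that were higher in WT roots with paraquat held a core too (11.8%), against 6 of the 23 that were lower (26.1%).

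The 5 Casparian strip peroxidases PER3, PER9, PER39, PER64 and PER72 together polymerise the lignin ring of the endodermis. No member of this list was higher in any comparison. Few of all genes tested were higher, 4.72% with paraquat in trm4b-1-labelled roots and 7.99% in WT roots. Between the genotypes the share was 0.0714% on paraquat and 0.839% on control medium, and 0.152% of interactions were positive. A count of 0 of 5 is near these shares. With paraquat 1 of 5 was lower in trm4b-1-labelled roots and 3 of 5 in WT roots. Of all genes tested, 4.33% and 9.01% were lower in these comparisons, and 1.19% in trm4b-1-labelled roots on control medium. PER3, first described as the cold-induced gene RCI3, changed by -0.39 ± 0.10 in trm4b-1-labelled roots and by -0.67 ± 0.10 in WT roots in the authors' deposited table (adjusted p = 0.0213 and 0.000218). PER64 and PER72 were not listed for trm4b-1-labelled roots, and in WT roots they were lower, with values of -0.76 ± 0.12 and -0.97 ± 0.15 in the authors' deposited table (adjusted p = 0.00049 and 0.000235). On control medium the difference of trm4b-1-labelled roots from WT roots was listed at -0.45 ± 0.12 for PER64 and -0.54 ± 0.15 for PER72 without passing (adjusted p = 0.078 and 0.0715 in the authors' deposited table). PER9 and PER39 were listed in no table. Of 6 endodermis markers outside the family, 1 was lower with paraquat in trm4b-1-labelled roots and 5 in WT roots, where the changes spanned -1.70 to -0.57 in the authors' deposited tables. On control medium 2 of the 6 were lower in trm4b-1-labelled roots. On paraquat 0 of the 6 were listed, where 75 of the 33602 genes tested were listed. CASP4, a membrane scaffold protein that marks where the strip forms, changed by -0.75 ± 0.16 in trm4b-1-labelled roots and by -1.70 ± 0.16 in WT roots with paraquat in the authors' deposited table. ESB1, a dirigent protein of the strip, had a rebuilt response of -0.17 ± 0.17 in trm4b-1-labelled roots and changed by -1.22 ± 0.17 in WT roots in the authors' deposited table. Whether the number of endodermal cells has a part in these values was not tested.

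Of the 8 peroxidases known for lignin of stems and xylem (PER2, PER4, PER17, PER25, PER47, PER52, PER66 and PER71), those that changed with paraquat were all higher, 3 of 8 in trm4b-1-labelled roots and 4 of 8 in WT roots. That holds for the list as drawn, since PER64 and PER72, which are also known for lignin of stems, are counted with the Casparian strip peroxidases and were lower in WT roots. Of all genes tested, 4.72% were higher with paraquat in trm4b-1-labelled roots and 7.99% in WT roots. PER4 (AT1G14540, chr1:4974067-4975705 of TAIR10, minus strand) rose 4.06-fold in trm4b-1-labelled roots, by 2.02 ± 0.15, and 2.57-fold in WT roots, by 1.36 ± 0.14 in the authors' deposited table (adjusted p = 3.31e-07 and 1.02e-05). PER25 rose by 0.44 ± 0.12 in trm4b-1-labelled roots and by 1.02 ± 0.12 in WT roots in the authors' deposited table (adjusted p = 0.0241 and 3.4e-05). PER71 rose by 0.81 ± 0.21 in trm4b-1-labelled roots in the authors' deposited table (adjusted p = 0.0221) and was not listed for WT roots. PER47 had a rebuilt response of -0.18 ± 0.08 in trm4b-1-labelled roots and rose by 0.33 ± 0.08 in WT roots in the authors' deposited table. PER2, PER17 and PER66 were listed in no table.

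PER52 (AT5G05340, chr5:1578951-1580875 of TAIR10, minus strand, 4 exons) had the interaction of largest size among the 9 members listed for it. Its response to paraquat, rebuilt from the authors' deposited tables, was 0.11 ± 0.50 in trm4b-1-labelled roots, with a 95% interval from -0.96 to 1.18. In WT roots it rose 11.2-fold, by 3.49 ± 0.43 in the authors' deposited table (adjusted p = 4.12e-05). On paraquat it was 7.19-fold lower in trm4b-1-labelled roots than in WT roots, at -2.85 ± 0.41 in the authors' deposited table (adjusted p = 0.00676). On control medium its rebuilt difference between the genotypes was 0.53 ± 0.51, with an interval from -0.57 to 1.62. The interaction was -3.37 ± 0.66, with an interval from -4.78 to -1.97, and passed (adjusted p = 0.0424 in the authors' deposited table). Set against WT roots on control medium, its level stood at 0.64 in trm4b-1-labelled roots on paraquat, 0.53 in trm4b-1-labelled roots on control medium and 3.49 in WT roots on paraquat, on the log2 scale.

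On control medium, 3 of the 8 lignin peroxidases differed between the genotypes, where 2.03% of all genes tested differed. PER25 and PER47 were higher in trm4b-1-labelled roots than in WT roots, by 0.71 ± 0.12 and 0.50 ± 0.08, and PER4 was lower at -0.80 ± 0.16 in the authors' deposited table (adjusted p = 0.00776, 0.00496 and 0.0177). On paraquat the rebuilt differences of these genes were 0.13 ± 0.12 for PER25, -0.02 ± 0.08 for PER47 and -0.14 ± 0.14 for PER4. The interaction of PER47 was listed at -0.52 ± 0.11 without passing (adjusted p = 0.0679 in the authors' deposited table).

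PER33 and PER34, also PRXCA and PRXCB, form the hydrogen peroxide of the apoplastic oxidative burst against pathogens and promote root elongation. PER34 (AT3G49120, chr3:18207651-18210132 of TAIR10, plus strand, 4 exons) rose by 0.74 ± 0.12 with paraquat in trm4b-1-labelled roots in the authors' deposited table (adjusted p = 0.000919), and its rebuilt response in WT roots was -0.20 ± 0.12, with a 95% interval from -0.46 to 0.07. The difference of these responses was 0.93 ± 0.17 and passed (adjusted p = 0.0328 in the authors' deposited table). Its rebuilt difference between trm4b-1-labelled roots and WT roots on paraquat was 0.25 ± 0.12, and on control medium it was lower in trm4b-1-labelled roots by -0.69 ± 0.12 in the authors' deposited table (adjusted p = 0.0103). PER33 was listed with paraquat at 1.82 ± 0.55 in trm4b-1-labelled roots and 1.79 ± 0.60 in WT roots without passing in either (adjusted p = 0.0509 and 0.0535 in the authors' deposited table).

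The pair is close in sequence, with 92.9% identical residues and 90.7% identical coding bases over global alignments of the RefSeq models. A stretch near the 3′ end of the coding region is shown because it contains the longest identical run of the pair, 111 bases, over which reads of one gene cannot be told from reads of the other. Capitals mark the 6 bases that differ within the 191 bases shown, which span coding positions 773 to 963 of PER33 and 770 to 960 of PER34 and lie in 1 exon (TAIR10.1).
PER33 (chr3:18202599-18202789, plus strand): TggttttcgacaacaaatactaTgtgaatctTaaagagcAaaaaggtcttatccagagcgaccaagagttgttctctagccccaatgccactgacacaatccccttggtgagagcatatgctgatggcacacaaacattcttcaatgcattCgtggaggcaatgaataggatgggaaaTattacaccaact
PER34 (chr3:18209749-18209939, plus strand): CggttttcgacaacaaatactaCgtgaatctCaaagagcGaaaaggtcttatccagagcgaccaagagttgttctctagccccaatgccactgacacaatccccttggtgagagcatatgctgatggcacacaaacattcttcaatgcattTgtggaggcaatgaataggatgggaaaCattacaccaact
The sources used here do not give how reads that match both genes were counted. The values of PER33 and PER34 are uncertain to that extent, and the interaction of PER34 is the single member call of that comparison in its direction.

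PER39, PER40 and PER57 are peroxidases repressed by UPB1, a transcription factor that sets the border between dividing and elongating root cells. PER57 was not listed with paraquat for trm4b-1-labelled roots and changed by -0.84 ± 0.14 in WT roots in the authors' deposited table (adjusted p = 0.000545). On control medium its genotype difference was listed at -0.49 ± 0.14 without passing (adjusted p = 0.0925 in the authors' deposited table). PER39, PER40 and UPB1 itself were listed in no table, nor were MYB36 and RHD6, which together with RSL4 and UPB1 made up the list of 4 regulators.

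Outside these role lists, PER28 and PER58 showed the largest rises. PER28 (AT3G03670, chr3:901841-903411 of TAIR10, minus strand) rose 21.1-fold with paraquat in trm4b-1-labelled roots, by 4.40 ± 0.55, and 21.9-fold in WT roots, by 4.46 ± 0.62 in the authors' deposited table (adjusted p = 6.49e-05 and 0.000116). Its rebuilt interaction was -0.05 ± 0.82. PER58 rose 15.8-fold in trm4b-1-labelled roots, by 3.98 ± 0.60, and 7.53-fold in WT roots, by 2.91 ± 0.48 in the authors' deposited table (adjusted p = 0.000384 and 0.000477), with a rebuilt interaction of 1.07 ± 0.77. PER5 rose by 2.52 ± 0.33 in trm4b-1-labelled roots and 1.47 ± 0.28 in WT roots in the authors' deposited table. PER50 rose by 0.98 ± 0.13 in trm4b-1-labelled roots and 0.58 ± 0.13 in WT roots, and PER62 rose by 0.88 in trm4b-1-labelled roots and 1.08 in WT roots in the authors' deposited table. PER54 rose by 0.84 ± 0.18 in trm4b-1-labelled roots and by 1.96 ± 0.21 in WT roots in the authors' deposited table, and its interaction was listed at -1.12 ± 0.27 without passing (adjusted p = 0.0944). PER49 rose by 0.69 in trm4b-1-labelled roots and 1.33 in WT roots in the authors' deposited table. PER11, PER16 and PER31 were higher in trm4b-1-labelled roots by 0.45 to 0.54, and in WT roots PER11 and PER31 were higher by 0.40 and 0.59 in the authors' deposited table, while PER16 was not listed there. PER14 and PER53 rose by 2.38 ± 0.56 and 1.82 ± 0.37 in WT roots in the authors' deposited table and were not listed for trm4b-1-labelled roots. PER15 was listed at 0.82 ± 0.25 in trm4b-1-labelled roots without passing (adjusted p = 0.0522) and rose by 0.95 ± 0.21 in WT roots in the authors' deposited table.

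Among the members that fell, PER59 (AT5G19890) was lower at -1.09 ± 0.27 with paraquat in trm4b-1-labelled roots and by -2.78 ± 0.42 in WT roots in the authors' deposited table (adjusted p = 0.0177 and 0.000228). Its difference between trm4b-1-labelled roots and WT roots on paraquat was listed at 2.17 ± 0.44 without passing (adjusted p = 0.0837 in the authors' deposited table), and its rebuilt interaction was 1.68 ± 0.50. PER21 changed by -1.19 ± 0.14 in trm4b-1-labelled roots and by -1.89 ± 0.14 in WT roots in the authors' deposited table (adjusted p = 4.56e-05 and 4.12e-07). PER22, PER32, PER45 and PER56 changed by -0.82, -0.51, -0.59 and -0.67 in trm4b-1-labelled roots and by -1.32, -1.07, -0.99 and -0.90 in WT roots in the authors' deposited table. PER23 and PER30 changed by -0.97 and -0.75 in trm4b-1-labelled roots and by -0.85 and -0.67 in WT roots in the authors' deposited table, and their rebuilt interactions were -0.12 ± 0.18 and -0.07 ± 0.11. PER27 changed by -0.47 in trm4b-1-labelled roots and -0.75 in WT roots in the authors' deposited table. PER24 had a rebuilt response of -0.22 ± 0.12 in trm4b-1-labelled roots and changed by -0.92 ± 0.12 in WT roots in the authors' deposited table, and its interaction was listed at 0.70 ± 0.17 without passing (adjusted p = 0.0909). PER42, PER51 and PER69 were not listed for trm4b-1-labelled roots, and in WT roots they had log2 values of -0.52, -0.50 and -0.80 in the authors' deposited table.

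Between the genotypes, 2 of the 60 members differed on paraquat and 13 on control medium. On paraquat 1 was higher and 1 lower in trm4b-1-labelled roots, where 0.143% of all genes tested differed, 0.0714% higher and 0.0714% lower. PER10 was the higher one, at 1.05 ± 0.19 in the authors' deposited table (adjusted p = 0.038), and was listed in no other comparison. PER52, above, was the lower one. On control medium 4 were higher and 9 lower, where 2.03% of all genes tested differed, 0.839% higher and 1.19% lower. The higher ones had a median of 0.85 and the lower ones of -0.80, against 0.83 and -0.74 over all genes that differed in the same comparison.

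PER38 (AT4G08780, chr4:5604153-5608202 of TAIR10, plus strand) led the 4 higher members. Its rebuilt difference between trm4b-1-labelled and WT roots was 0.30 ± 0.14 on paraquat, and on control medium it was 2.31-fold higher in trm4b-1-labelled roots, by 1.21 ± 0.16 in the authors' deposited table (adjusted p = 0.00114). With paraquat its rebuilt response was 0.08 ± 0.14 in trm4b-1-labelled roots, and it rose by 0.99 ± 0.17 in WT roots in the authors' deposited table. Its interaction was listed at -0.91 ± 0.21 without passing (adjusted p = 0.0876 in the authors' deposited table). PER54 was higher by 1.00 ± 0.22 on control medium in trm4b-1-labelled roots in the authors' deposited table (adjusted p = 0.0299), with a rebuilt difference of -0.13 ± 0.16 on paraquat. The other 2 higher members were the lignin peroxidases PER25 and PER47. Besides the 5 root hair peroxidases, PER4 and PER34, the lower members were PER21 at -0.60 ± 0.15 and PER24 at -0.54 ± 0.11 in the authors' deposited table (adjusted p = 0.0459 and 0.0215). PER15, PER19 and PER63 were listed at -0.84, -0.71 and -0.75 without passing in the authors' deposited table. The rebuilt difference of PER15 on paraquat was -0.98 ± 0.22, and the genotype difference of PER19 and PER63 on paraquat had no value.

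**Figure D2:**
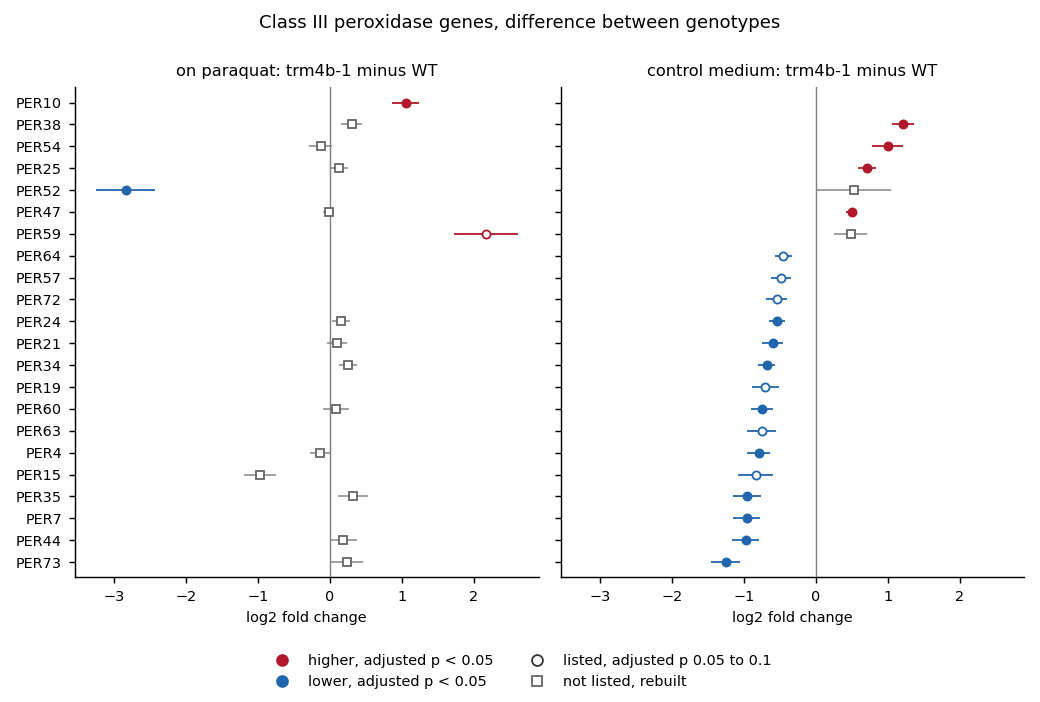
Log2 difference between trm4b-1-labelled and WT roots (x axis) of the 22 peroxidase genes with a value in either comparison, on paraquat at left and on control medium at right, with bars of 1 standard error and the same symbols as in the plot of paraquat responses. On paraquat PER10 and PER52 passed the test, at 1.05 and -2.85, while 13 genes passed on control medium.

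The interaction passed for 2 of the 60 members, 1 positive (PER34) and 1 negative (PER52), where 0.318% of all genes tested passed, 0.152% positive and 0.167% negative. A further 7 members were listed without passing, namely PER24, PER35, PER44 and PER73 with positive values and PER38, PER47 and PER54 with negative ones. The interaction shares its samples with every other comparison, so for these genes the values of each comparison are given side by side and their signs are not compared.

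**Figure D3:**
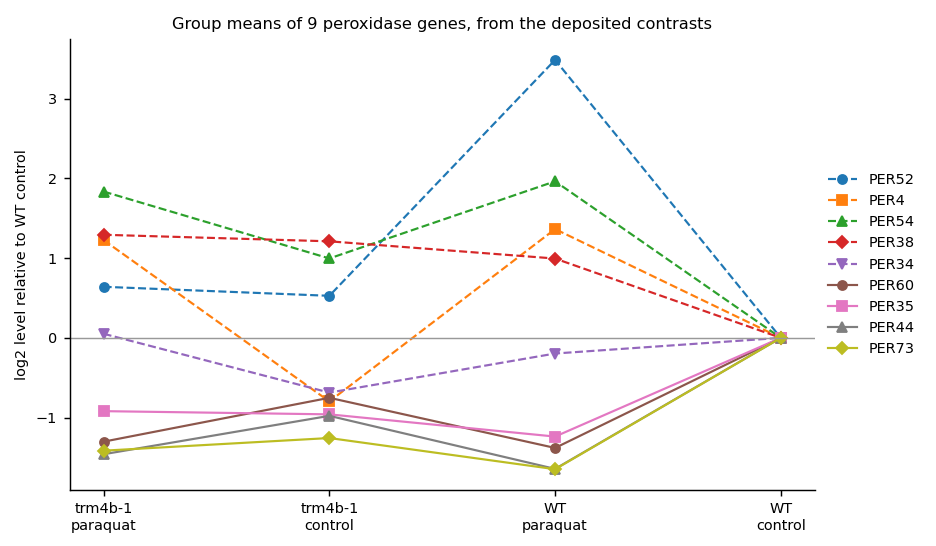
Mean log2 level of 9 peroxidase genes in each group relative to the WT control group (y axis), built from the deposited comparisons, with the WT control group at 0 by construction and lines that only join the points of a gene. PER52 stands at 3.49 in WT roots on paraquat and at 0.64 in trm4b-1-labelled roots on paraquat, and the 4 root hair peroxidases PER35, PER44, PER60 and PER73 lie below 0 in the other three groups.

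Many members sit beside each other in the genome, in 11 neighbouring pairs with no other protein-coding gene between the starts of their RefSeq models, and PER33 and PER34 are not counted there because AT3G49115 lies between them. The 60 proteins shared a median of 40.5% identical residues per pair, with a lowest value of 29.4%, and had coding lengths of 933 to 1119 bases. The deposited models of 35 of the 48 listed members had 4 exons. In WT roots with paraquat both genes of a pair were higher for PER4 and PER5 (73.3% identical residues), PER14 and PER15 (88.7%) and PER53 and PER54 (84.5%), and both were lower for PER22 and PER23 (89.4%). Of these pairs, PER4 with PER5 and PER22 with PER23 also changed together in trm4b-1-labelled roots.

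Neighbours also went opposite ways. PER58 and PER59 (47.6% identical residues) moved in opposite directions in both genotypes, at 3.98 and -1.09 in trm4b-1-labelled roots and 2.91 and -2.78 in WT roots in the authors' deposited table. PER50 rose by 0.98 in trm4b-1-labelled roots, where PER51 was not listed, and in WT roots PER50 rose by 0.58 and PER51 changed by -0.50 in the authors' deposited table. PER37 was listed in no table, while its neighbour PER38, with 92.8% identical residues, changed in WT roots. Stretches of PER50 and PER51 are shown because they were called in opposite directions although 89.4% of their residues are identical. The stretch spans coding positions 112 to 258 in both, crosses an intron in the genomic interval given (TAIR10.1), and capitals mark the 6 bases that differ.
PER50 (chr4:17631815-17632043, plus strand): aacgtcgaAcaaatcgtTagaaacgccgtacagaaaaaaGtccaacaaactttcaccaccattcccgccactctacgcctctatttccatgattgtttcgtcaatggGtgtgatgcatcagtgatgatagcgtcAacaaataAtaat
PER51 (chr4:17634897-17635129, plus strand): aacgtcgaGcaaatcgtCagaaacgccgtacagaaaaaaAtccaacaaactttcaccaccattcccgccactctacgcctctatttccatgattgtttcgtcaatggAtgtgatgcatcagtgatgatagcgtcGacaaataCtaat
The longest identical coding run was 67 bases for this pair, 126 for PER14 and PER15, 101 for PER37 and PER38 and 62 for PER22 and PER23. Values of these genes depend to that extent on how reads matching both copies were counted.

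**Figure D4:**
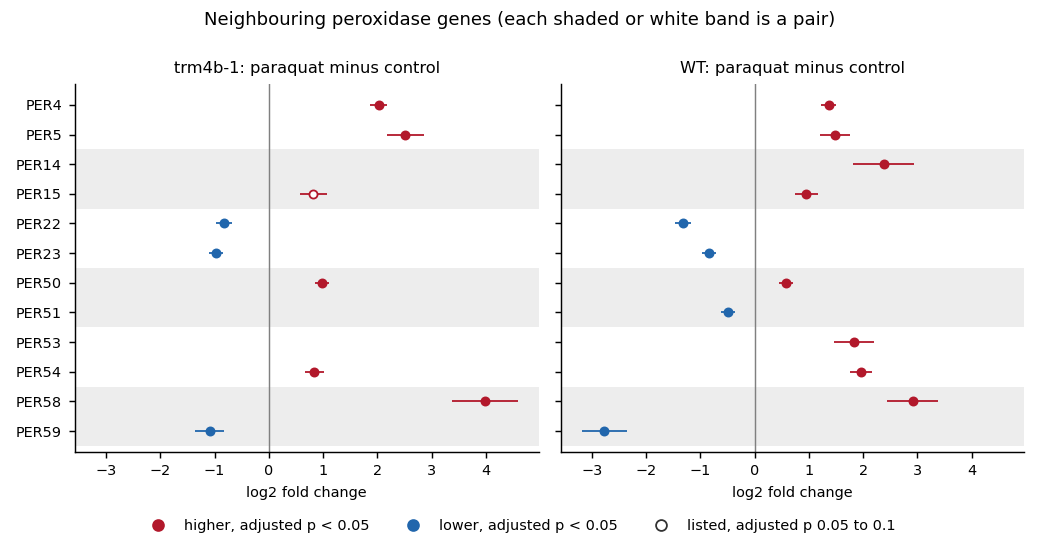
Log2 fold change with paraquat (x axis) of 6 neighbouring gene pairs, 1 pair to a shaded or white band, in trm4b-1-labelled roots at left and WT roots at right, with bars of 1 standard error. PER58 lies at 3.98 and 2.91 in the left and right panels, while PER59, beside it in the genome, lies at -1.09 and -2.78.

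Other genes that act with these peroxidases were read from fixed lists, which need not hold whole families. Set beside these lists, 4.72% of all genes tested were higher and 4.33% lower with paraquat in trm4b-1-labelled roots. In WT roots 7.99% were higher and 9.01% lower. On control medium 0.839% of all genes tested were higher and 1.19% lower in trm4b-1-labelled roots than in WT roots. The 13 class III peroxidases left out of the set had 0 members changed with paraquat in trm4b-1-labelled roots and 1 higher in WT roots. Of 10 NADPH oxidases, which make the superoxide from which apoplastic hydrogen peroxide forms, 1 was higher and 2 lower in trm4b-1-labelled roots, and 1 was higher and 3 lower in WT roots. RBOHD, the oxidase of the immune burst, rose by 0.59 ± 0.13 in trm4b-1-labelled roots and 0.64 ± 0.13 in WT roots, and RBOHB changed by -0.54 ± 0.11 in trm4b-1-labelled roots and -1.02 ± 0.12 in WT roots in the authors' deposited table. RHD2, the oxidase of the hair tip, was not listed for trm4b-1-labelled roots and changed by -0.34 ± 0.08 in WT roots in the authors' deposited table. Between the genotypes 0 of the 10 differed on either medium, where 0.143% of all genes tested differed on paraquat and 2.03% on control medium.

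Laccases also couple monolignols, with oxygen in place of hydrogen peroxide. Of 17, with paraquat 3 were higher and 1 lower in trm4b-1-labelled roots, and 1 was higher and 8 lower in WT roots. On control medium 7 were lower and 0 higher in trm4b-1-labelled roots than in WT roots. On paraquat 0 of the 17 were listed between the genotypes, where 75 of the 33602 genes tested were listed. LAC12 rose by 1.75 ± 0.34 in trm4b-1-labelled roots and by 2.91 ± 0.31 in WT roots in the authors' deposited table. LAC13 rose by 1.07 ± 0.18 in trm4b-1-labelled roots in the authors' deposited table and had a rebuilt response of 0.03 ± 0.15 in WT roots. On control medium LAC13 was lower in trm4b-1-labelled roots by -1.14 ± 0.17 in the authors' deposited table. Of 18 genes of monolignol synthesis, 3 were higher and 0 lower with paraquat in trm4b-1-labelled roots, and 0 were higher and 3 lower in WT roots. Either count is 16.7% of the list, where 9.05% of all genes tested changed in trm4b-1-labelled roots and 17% in WT roots. CAD5, a cinnamyl alcohol dehydrogenase, rose by 0.69 ± 0.10 in trm4b-1-labelled roots and was listed at 0.28 ± 0.10 in WT roots without passing (adjusted p = 0.0781) in the authors' deposited table. PAL4, a phenylalanine ammonia-lyase, had a rebuilt response of 0.18 ± 0.14 in trm4b-1-labelled roots and changed by -0.68 ± 0.14 in WT roots in the authors' deposited table. On control medium 2 of the 18 were lower in trm4b-1-labelled roots.

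Extensins are the wall proteins that peroxidases cross-link. Of 12 extensins and leucine-rich repeat extensins, 1 was higher and 0 lower with paraquat in trm4b-1-labelled roots, and 1 was higher and 7 lower in WT roots. On control medium 6 were lower and 0 higher in trm4b-1-labelled roots than in WT roots. EXT10 was listed at -0.82 ± 0.26 in trm4b-1-labelled roots without passing (adjusted p = 0.0638) and changed by -2.40 ± 0.26 in WT roots in the authors' deposited table. EXT6 had a rebuilt response of -0.67 ± 0.28 in trm4b-1-labelled roots and changed by -2.37 ± 0.27 in WT roots in the authors' deposited table. The interaction passed for LRX1, which acts in root hair walls and is named after its value was seen, at 1.27 ± 0.24 in the authors' deposited table (adjusted p = 0.0323). Shoot markers, a list of photosynthesis genes, also moved. Of 23, 1 was higher and 0 lower with paraquat in trm4b-1-labelled roots, and 0 were higher and 17 lower in WT roots, with changes from -4.75 to -0.65 in WT roots in the authors' deposited tables. On control medium 1 of the 23 was lower in trm4b-1-labelled roots. The part of shoot tissue in the peroxidase values was not tested.

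**Figure D5:**
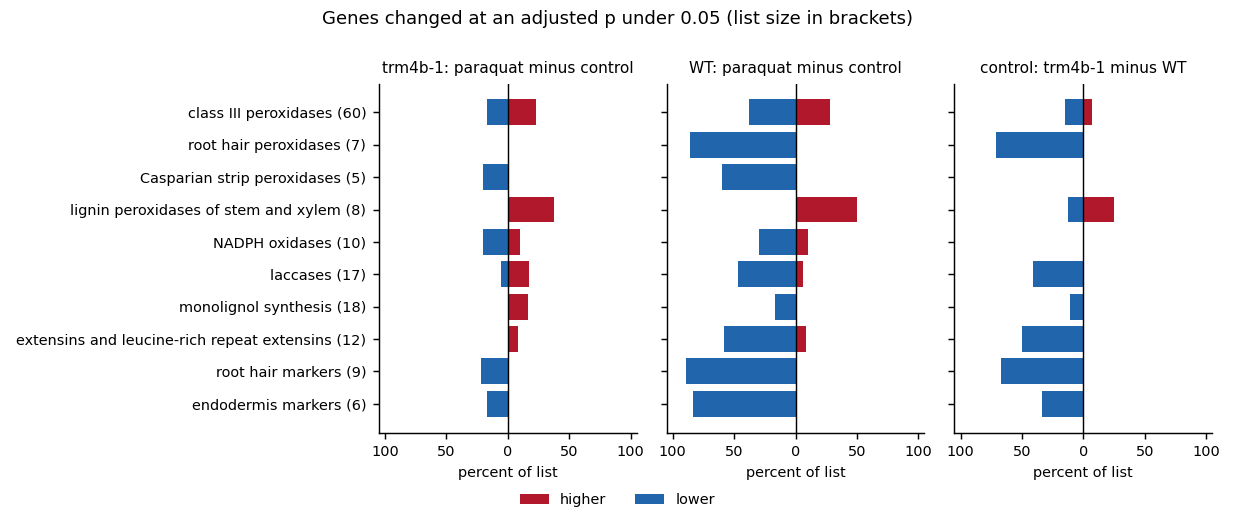
Percent of each gene list that was higher (right of 0) or lower (left of 0) at an adjusted p under 0.05, with list sizes in brackets, for paraquat in trm4b-1-labelled roots, paraquat in WT roots and the genotype difference on control medium. Root hair peroxidases and root hair markers extend far to the left for WT roots, with 6 of 7 and 8 of 9 lower, while 0 of 7 and 2 of 9 were lower in trm4b-1-labelled roots.

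The promoters were also searched for letters known from stress genes. TTGACC, a W-box of WRKY factors, stood on either strand in 3 of the 17 promoters of members higher in WT roots with paraquat (17.6%), in 0 of the 23 of lower members and in 13.5% of the promoters of all listed nuclear genes. TTGACT, another W-box, stood in 5 of the 17 higher members (29.4%), in 4 of the 23 lower members (17.4%) and in 20.7% of all. The G-box CACGTG stood in 0 of the 48 promoters of listed members and in 8.92% of all, and TGACG, read by TGA factors, in 12.5% of the members and 22.6% of all. The letters of CACGTG and GCACGT overlap when joined, and a promoter with both would count under each.

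Of the 60 members, 12 were listed in no table, namely PER1, PER2, PER9, PER17, PER36, PER37, PER39, PER40, PER55, PER66, PER67 and PER70. PER36 is known from seed coat mucilage release, and PER9 and PER40 from the tapetum of anthers. A gene missing from a table had an adjusted p of at least 0.1 or was not tested, and without levels a gene that did not respond cannot be told from one with too few reads. A further 4 were listed and never changed, PER12, PER19, PER33 and PER63. PER12 was listed at 0.49 ± 0.18 and PER19 at -0.52 ± 0.19 with paraquat in WT roots (adjusted p = 0.0706 and 0.0742 in the authors' deposited table).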

How the data were processed

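Root RNA was sequenced after removal of ribosomal RNA, per the labels' protocols. Per the submitters' processing notes the authors used Trimmomatic, TopHat and limma with the build TAIR10 (no versions are named). Counting, use of strand, normalization and filters: not given in the sources used here. Each of the 5 tables the authors deposited holds a fold change on the log2 scale (by limma's convention, no base being named), with its p-value, Benjamini-Hochberg adjusted p-value and Storey q-value and the gene length, without values of single samples, so depth and the precision it gives are unknown. The design text calls the 3 replicates of a group biological.

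Rank, p and adjusted p gave the number of genes tested, 33602, which also showed a Benjamini-Hochberg adjustment. The interaction equalled the difference of both paraquat comparisons in 96 genes and that of both genotype comparisons in 11 genes, which fixes the signs relative to each other, and the tables' names give paraquat minus control and trm4b-1 minus WT. Variances of the 96 genes gave 15.3 total degrees of freedom, and each standard error is the log2 fold change over the t value implied by its p. Unlisted comparisons were rebuilt from listed ones, and the recovery was tested on simulated data.

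Members and lists were chosen with earlier results of these data known. The naming rule takes members listed in a genotype comparison or the interaction, the 8 largest rises and falls in each paraquat comparison, all members of the role lists, up to 4 changed genes of each other list, and TRM4B; the remaining members that changed are named after their values were seen. PER numbers follow locus order and equal those of all 12 members that RefSeq numbers. Sequences come from TAIR10.1 (RefSeq), on which 125 of 126 introns of the members (99.21%) at deposited coordinates keep the usual GT or GC start and AG end. Alternatives were other thresholds, a minimum change, Storey q-values, Holm adjustment, leaving out members at least 90% identical to another in protein or in coding bases, and the interaction rebuilt. The rebuilt interaction equals the deposited one by arithmetic and is no further test. Calculations ran in Python 3.11.15 with Biopython 1.88, scipy 1.17.1, numpy 2.4.6, pandas 2.3.3 and, for figures, matplotlib 3.10.9.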

Additional observations from a re-analysis of the deposited data

Results flagged for a closer look

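The paraquat response differed between the genotypes, by the interaction test of the authors' deposited table, for 2 peroxidase genes. PER34 had an interaction of 0.93 ± 0.17 (adjusted p = 0.0328 in the authors' deposited table), with a rise of 0.74 ± 0.12 in trm4b-1-labelled roots and a rebuilt response of -0.20 ± 0.12 in WT roots. PER52 had an interaction of -3.37 ± 0.66 (adjusted p = 0.0424 in the authors' deposited table), with a rebuilt response of 0.11 ± 0.50 in trm4b-1-labelled roots and a rise of 3.49 ± 0.43 in WT roots.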

How the results depend on the processing

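Of 70 alternatives to the counts of members, 40 stayed within 1.5 times the count given and 30 moved. A count has no sign, so none could reverse. With an absolute log2 change of at least 1, members with paraquat numbered 4 higher and 2 lower in trm4b-1-labelled roots and 11 higher and 10 lower in WT roots, on control medium 1 was higher and 1 lower in trm4b-1-labelled roots, and 0 interactions were positive. With Holm adjustment the counts were 4 higher and 3 lower with paraquat in trm4b-1-labelled roots, 4 and 10 in WT roots, 0 and 0 between the genotypes on paraquat, 1 and 0 on control medium, and 0 and 0 for the interaction. With an adjusted p under 0.01, 6 members were lower with paraquat in trm4b-1-labelled roots, 0 were higher between the genotypes on paraquat, 1 was lower on control medium, and 0 positive and 0 negative interactions passed. With an adjusted p under 0.1, 2 were higher between the genotypes on paraquat, 15 were lower on control medium, and 5 positive and 4 negative interactions passed. With the deposited Storey q-value under 0.05, 4 positive and 2 negative interactions passed. At an adjusted p under 0.05, 0 positive interactions passed without the 6 members whose protein is at least 90% identical to another. At the same threshold 0 positive ones passed without the 12 members whose coding bases are at least 90% identical to another. That last alternative was chosen after seeing the data. Each alternative counts fewer or more genes of the same tables. The part of reads shared between close copies in these counts was not tested.

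No paired analysis was possible because the tables hold comparisons and no values per sample. For the same reason leaving out single replicates, low counts and library depth could not be examined.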
